A study of Mus musculus with 8 samples.

Results

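The liver mRNA of 9 organic anion and drug transporters was examined in WT mice and in mice homozygous for a deletion of the N-terminal region of the Lamin B receptor (Lbr, NT-KO). The members are the carriers Slco1a1, Slco1a4, Slco1b2, Slco2b1 and Slc22a7 and the efflux pumps Abcc2, Abcc3, Abcc4 and Abcg2. They were found by matching these gene symbols to the Ensembl gene IDs of the count table. All 9 had a row among its 49671 gene IDs, and all 9 were among the 13117 genes tested.

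Hepatocytes take up bile acids, bilirubin, hormone conjugates and many drugs from the blood through Slco carriers (the OATP family) and Slc22 carriers on their sinusoidal face. Abc pumps then use ATP to move these compounds or their conjugates out, either into bile across the canalicular membrane or back into the blood across the basolateral membrane. In rodents several of these genes are known to differ between male and female liver, where the pattern of growth hormone release and the sex steroids act on them.

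The study made RNA-seq libraries from whole liver of post weaning C57BL/6 mice (the methods name the C57BL/6N substrain for the backcross), with 2 libraries for each genotype (WT or NT-KO) in each sex, which makes 4 groups. The mice received no treatment, and NT-KO mice carry the deletion in every tissue, in a line bred from a single CRISPR founder that the study describes as leaving a protein made from a later start codon. Nothing in the labels states that the 2 libraries of a group came from separate animals, so p-values measure the spread between libraries, which may be technical. The 8 libraries held 45020377 to 64396291 counts, and levels are given as CPM (counts scaled to the library size), with library sizes scaled by edgeR's TMM method.

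Lbr mRNA lay between 6.54 and 7.99 CPM in the 4 WT libraries and between 12.8 and 14.0 CPM in the 4 NT-KO libraries. The table holds a single value per gene, so the deleted stretch itself was not seen, and the Lbr difference did not pass the test (log2 fold change 0.86, FDR 0.167 in males). Xist and 4 Y-linked genes matched the labelled sex in all 8 libraries. Male WT replicate 2 stood apart: its 10 acute phase genes summed to 16994 CPM, against 4593 to 8611 CPM elsewhere, and its 12 ER chaperone genes to 7966 CPM, against 1804 to 3388 CPM. It was also the lowest of the 4 male libraries for 6 of the 9 transporters (Slco1a1, Slco1a4, Slco1b2, Slco2b1, Abcc2 and Abcc3). The share of all genes that were lowest in this library was not counted, so this is not shown to be particular to the transporters. The values that moved most without this library are given beside the results.

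**Figure D1:**
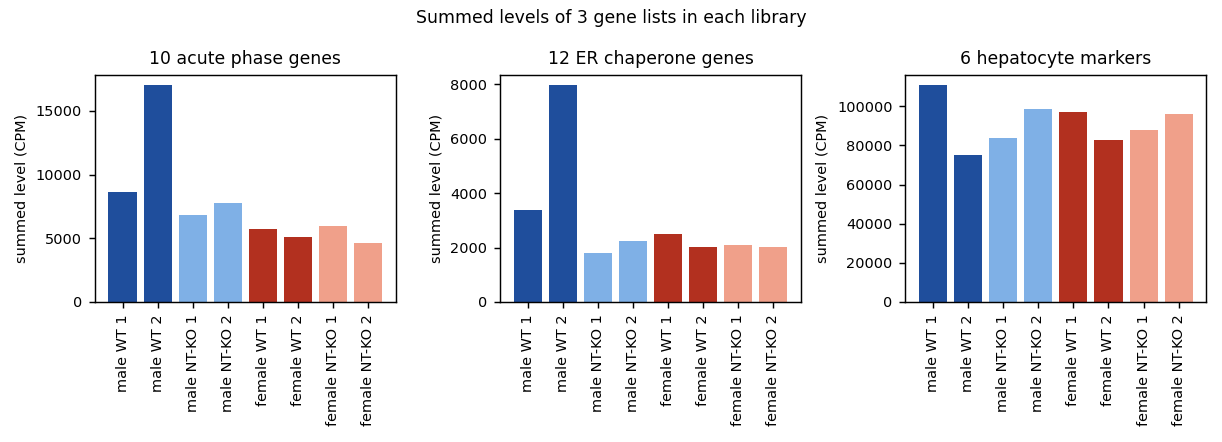
Summed CPM (y axis) of the acute phase genes, the ER chaperones and the hepatocyte markers in each of the 8 libraries (x axis), coloured by group. Male WT replicate 2 has the highest bar for the acute phase genes (16994 CPM) and the ER chaperones (7966 CPM), and the lowest for the hepatocyte markers (74869 CPM).

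Of the 4 Slco members, 3 lie in a single run of Slco genes on mouse chromosome 6 (GRCm38): Slco1b2 at chr6:141629518-141686646 on the plus strand, Slco1a4 at chr6:141805440-141856199 and Slco1a1 at chr6:141907282-141946962, with the last 2 on the minus strand. As described further on, Slco1a4 was higher in females, Slco1a1 was lower but did not pass the test, and Slco1b2 differed by less than its standard error. The 250 bases before the start of each are shown from RefSeq (GRCm38.p6), and their part in these values was not tested. Capitals mark matches on either strand to TTCNNNGAA, the core bound by STAT5, or to GTTAAT, a short site of HNF1.
Slco1b2, plus strand, chr6:141629268-141629517: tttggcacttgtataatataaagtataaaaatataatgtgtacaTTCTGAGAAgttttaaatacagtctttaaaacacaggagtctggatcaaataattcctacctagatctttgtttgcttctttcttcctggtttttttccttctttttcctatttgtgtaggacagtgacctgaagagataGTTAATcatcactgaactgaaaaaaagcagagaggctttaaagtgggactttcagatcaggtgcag
Slco1a4, minus strand, chr6:141856221-141856470: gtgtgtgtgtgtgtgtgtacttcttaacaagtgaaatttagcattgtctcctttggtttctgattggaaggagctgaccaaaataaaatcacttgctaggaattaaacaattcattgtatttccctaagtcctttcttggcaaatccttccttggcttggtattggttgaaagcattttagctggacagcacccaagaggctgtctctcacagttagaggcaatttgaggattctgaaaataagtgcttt
Slco1a1, minus strand, chr6:141946963-141947212: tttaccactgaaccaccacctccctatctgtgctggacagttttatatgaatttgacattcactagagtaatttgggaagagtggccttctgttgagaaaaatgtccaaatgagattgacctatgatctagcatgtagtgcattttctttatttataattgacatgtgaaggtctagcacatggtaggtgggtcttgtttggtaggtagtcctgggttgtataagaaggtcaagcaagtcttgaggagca
The Slco1b2 window held a STAT5 core that began 206 bases before the start and an HNF1 short site at 66 bases before it, and no letters of either kind stood in the Slco1a4 and Slco1a1 windows. For comparison, 7.02% of all 32851 promoter windows held the STAT5 core in their 250 upstream bases and 6.43% held the HNF1 short site. RefSeq windows were matched for 7 of the 9 members, and all 12 of their windows were searched. Over 300 bases, which include some past the start, 4 windows held a STAT5 core, against 8.30% of all windows. Apart from Slco1b2 these were of Slco2b1 and Abcc4, with all female libraries above all male ones. The HNF1 short site stood in 1 window. A core of the antioxidant response, TGACNNNGC, was also searched for and stood in 3 windows, of Abcc2 and Abcc4 (12.4% of all windows).

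Slco1b2, the main liver-specific uptake carrier of the OATP family in mice (ENSMUSG00000030236), had the highest level per length of the 9 transporters in every group. Males had 1097 and 877 CPM (WT) and 1059 and 1620.1 CPM (NT-KO), and females 859.8 and 992 CPM (WT) and 1048 and 1447 CPM (NT-KO). The male and female libraries overlapped, and so did WT and NT-KO over both sexes. The sex difference over both genotypes (female minus male) was -0.10 on the log2 scale (SE 0.19), which did not pass the test.

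Slco1a1, an uptake carrier of steroid conjugates and bile acids (ENSMUSG00000041698), measured 808 and 516 CPM (WT) and 749.7 and 1342 CPM (NT-KO) in males. In females it measured 351 and 215 CPM (WT) and 389 and 668 CPM (NT-KO). Within each genotype both female libraries lay below both male libraries, while the highest female NT-KO library exceeded the lowest male WT library. The 2 libraries of a group differed by 1.57-fold to 1.79-fold, a wide spread for a gene with at least 14616 counts in each library. Of the 50-base stretches of its transcripts, 1.64% occur in another gene of the same run, so few of its reads could be shared with them.

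Slco1a4, an uptake carrier for cardiac glycosides and conjugated anions (ENSMUSG00000030237), showed the opposite pattern to its neighbour. Males had 51.4 and 26.3 CPM (WT) and 71.9 and 41.0 CPM (NT-KO), against 99.1 and 102 CPM (WT) and 80.7 and 106 CPM (NT-KO) in females. All 4 female libraries were above all 4 male libraries. The spread was large in males (1.95-fold between the WT libraries) and small in female WT (1.03-fold), and 1.61% of its 50-base stretches occur in other Slco genes.

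Slco2b1, a broad uptake carrier that also takes up sulfated steroids (ENSMUSG00000030737, chr7:99657804-99711340), measured 123 and 109 CPM (WT) and 118 and 133 CPM (NT-KO) in males. In females it measured 139 and 164 CPM (WT) and 162 and 158 CPM (NT-KO). Every female library exceeded every male library, by a small margin. Exons of opposite-strand genes overlap 9.21% of its exon bases, and since the counting is not stated to use strand, reads in that stretch could come from either.

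Slc22a7, the organic anion carrier OAT2 of the sinusoidal membrane (ENSMUSG00000067144, chr17:46432183-46438457), had the largest sex difference of the members in WT and over both genotypes. Male WT libraries had 136 and 141 CPM and male NT-KO libraries 95.7 and 73.5 CPM. Female WT libraries had 28.6 and 29.6 CPM and female NT-KO libraries 57.0 and 30.9 CPM. No female library reached the lowest male library. The replicates agreed closely in both WT groups (1.03-fold in each) and less so in female NT-KO (1.84-fold).

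Abcc2, the canalicular pump for bilirubin glucuronides and other conjugates (ENSMUSG00000025194, chr19:43782192-43840740), measured 396 and 309 CPM (WT) and 491 and 563 CPM (NT-KO) in males. Females had 416 and 527 CPM (WT) and 377 and 536 CPM (NT-KO). Male WT held the lowest library, and the libraries of the other 3 groups overlapped with each other.

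Abcg2, the canalicular pump for sulfated conjugates, urate and many drugs (ENSMUSG00000029802, chr6:58584523-58695676), measured 98.3 and 84.3 CPM (WT) and 76.3 and 105 CPM (NT-KO) in males. The female libraries lay far below, at 30.6 and 40.3 CPM (WT) and 35.7 and 41.5 CPM (NT-KO). The WT and NT-KO libraries of each sex overlapped.

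Abcc3, a basolateral pump that returns glucuronides to the blood (ENSMUSG00000020865, chr11:94343295-94392997), measured 98.9 and 38.0 CPM (WT) and 149 and 134 CPM (NT-KO) in males. Females had 175 and 192 CPM (WT) and 175 and 218 CPM (NT-KO). All female libraries were above all male libraries, and the male WT libraries differed by 2.603-fold, the widest replicate spread of any member in any group.

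Abcc4, a basolateral pump for bile acids and cyclic nucleotides (ENSMUSG00000032849, chr14:118482692-118706219), was the lowest member, with 74 to 259 counts in a library. Males had 1.48 and 1.75 CPM (WT) and 1.97 and 2.12 CPM (NT-KO), and females 2.56 and 3.50 CPM (WT) and 4.55 and 2.31 CPM (NT-KO). The female libraries were all above the male libraries, although the lowest female library (2.31 CPM) was close to the highest male library (2.12 CPM).

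**Figure D2:**
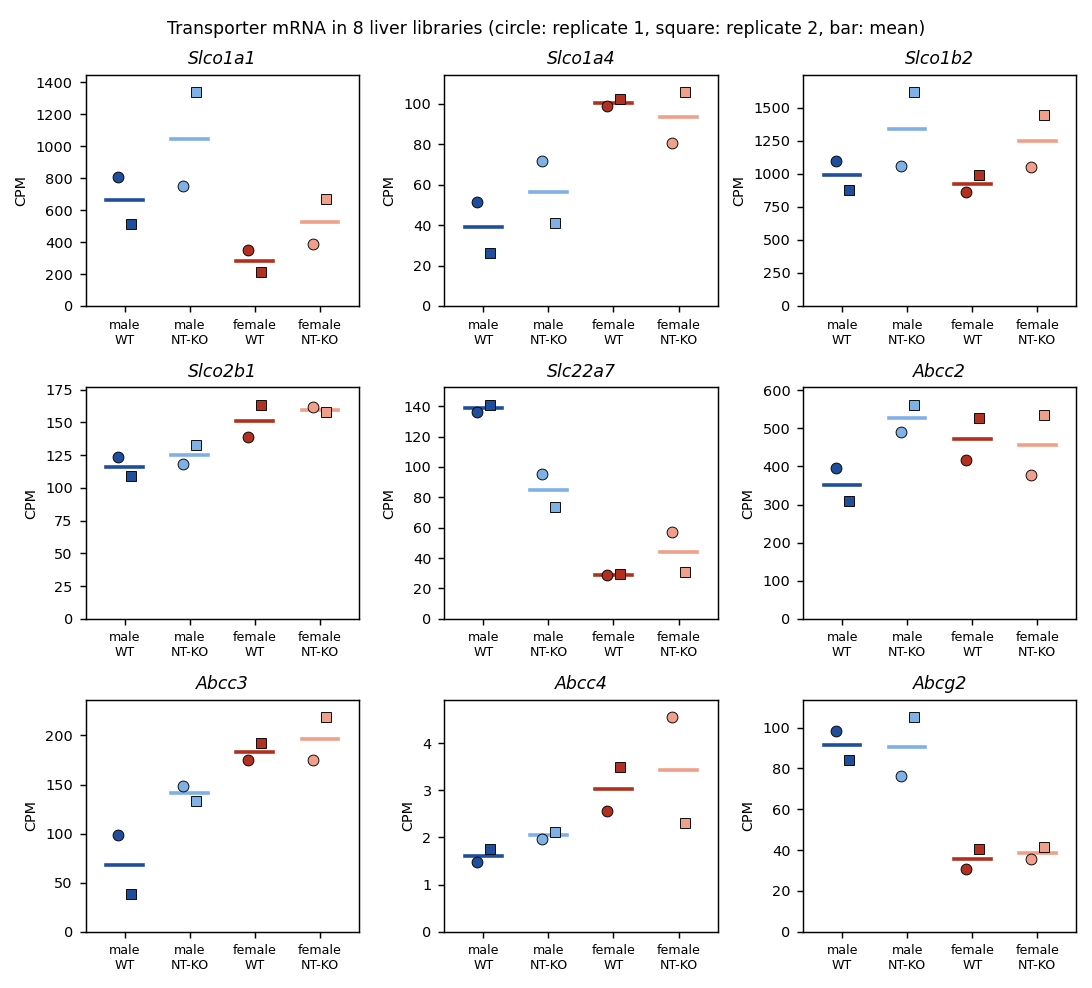
CPM (y axis, from 0, with its own scale in each panel) of the 9 transporters in the 4 groups (x axis), with a circle for replicate 1, a square for replicate 2 and a bar for the mean of 2 libraries. Slc22a7 and Abcg2 are lower in all female libraries, and Slco1a4, Slco2b1, Abcc3 and Abcc4 are higher in all of them.

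To compare the genes with each other, levels were divided by the length of the merged exons of all annotated transcripts of a gene (CPM per kb). No other length was tried, so close ranks and the shares below hold for this length only. In male WT the order was Slco1b2 at 200.3 ± 31.5 CPM per kb (SD, n = 2), Slco1a1 at 126 ± 39.2, Slc22a7 at 66.1 ± 1.56, Abcc2 at 41.3 ± 7.19, Slco2b1 at 19.5 ± 1.72, Abcc3 at 12.01 ± 7.56, Abcg2 at 11.2 ± 1.21, Slco1a4 at 6.05 ± 2.76 and Abcc4 at 0.253 ± 0.0292. In that group only Abcc3 and Abcg2 were neighbours whose libraries overlapped. In male NT-KO the libraries of Slco1b2 and Slco1a1 overlapped, as did those of Abcg2 and Slco1a4.

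In female WT, Slc22a7 was at rank 7, at 13.9 ± 0.317 CPM per kb (SD, n = 2), and Slco1a1 ranked behind Abcc2, with 53.6 ± 18.2 against 55.3 ± 9.15 CPM per kb, although their libraries overlapped. Abcc3 was at rank 4 in both female groups, at 32.2 ± 2.08 CPM per kb in WT and 34.5 ± 5.39 in NT-KO. In female NT-KO, Slco2b1, Slc22a7 and Slco1a4 followed each other with overlapping libraries. Slco1b2 led and Abcc4 came last in all 4 groups.

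**Figure D3:**
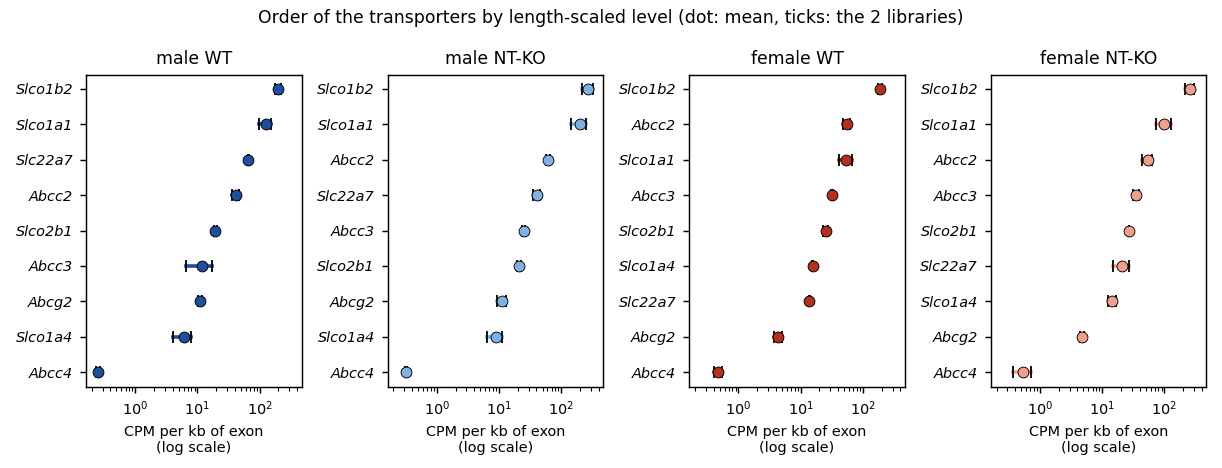
Level per length (x axis, CPM per kb of exon, log scale) of the transporters, ranked within each of the 4 groups, with a dot for the mean and ticks for the 2 libraries. Slco1b2 is first and Abcc4 last in each group, and Slc22a7 is at rank 3 in male WT and at rank 7 in female WT.

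The make-up of the summed Slco level also differed by sex. Slco1a1 made up 35.3 ± 3.59% (SD, n = 2) of the summed CPM per kb of the 4 Slco members in males of the WT group and 39.1 ± 3.51% in those of the NT-KO group. In females it made up 19.0 ± 6.72% (WT) and 25.0 ± 3.34% (NT-KO). Slco1a4 made up 1.68 ± 0.428% in male WT and 5.55 ± 0.0438% in female WT. Among the 4 Abc members, Abcc2 held the largest share in every group, from 57.1 ± 2.58% in female NT-KO to 64.4 ± 4.73% in male WT. Abcg2 held 17.6 ± 2.46% of the Abc sum in male WT and 4.70 ± 0.292% in female WT, while Abcc3 held 17.6 ± 7.33% and 35.0 ± 2.37%.

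The first comparison asked which transporters differed between the sexes, with female against male averaged over both genotypes (4 libraries of each sex). Of the 9 members, 3 passed an FDR of at most 0.05, against 7.84% of all genes tested. Slc22a7 and Abcg2 were lower in females (background 3.72% for lower), and Slco1a4 was higher (4.12%). The libraries of the sexes did not overlap for 6 members, against 16.1% of all genes: Slc22a7 and Abcg2 were lower in all females (7.6% of all genes were), and Slco1a4, Slco2b1, Abcc3 and Abcc4 higher (8.5%). The median absolute log2 fold change was 0.95 over the members and 0.22 over all genes. Because the members were chosen with earlier results of these data known, an excess over all genes, here or below, is no independent evidence. In whole liver, fewer cells of a type and less RNA per cell cannot be told apart.

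Abcg2 was 2.46-fold lower in females (log2 fold change -1.30, SE 0.15, edgeR quasi-likelihood FDR 0.00201). Slc22a7 was 3.03-fold lower (log2 fold change -1.60, SE 0.20, FDR 0.00245). Slco1a4 was 2.07-fold higher (log2 fold change 1.05, SE 0.25, FDR 0.0418). Abcg2 and Slc22a7 passed with any library left out. Slco1a4 did not pass without male WT replicate 2 (log2 fold change 0.85, FDR 0.0812), without male NT-KO replicate 2 (FDR 0.0940), or without any of the 4 female libraries (FDR 0.0851 to 0.109).

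The other 6 members did not pass over both genotypes. Slco1a1 came closest, at -1.11 on the log2 scale (SE 0.29, FDR 0.0547). Abcc3 was at 0.95 (SE 0.27, FDR 0.0682), Abcc4 at 0.83 (SE 0.25, FDR 0.0781) and Slco2b1 at 0.37 (SE 0.12, FDR 0.0988), each with all female libraries above all male ones. Abcc2 was at 0.11 (SE 0.17) and Slco1b2 at -0.10 (SE 0.19), both smaller than their standard error. Slco1a1, Abcc3 and Abcc4 passed under edgeR's likelihood ratio test and under DESeq2, which each called 6 members.

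Within WT, 2 of 9 members passed, against 6.44% of all genes, and 8 of 9 had libraries that did not overlap, against 62%. Slc22a7 was 4.77-fold lower in females (log2 fold change -2.25, SE 0.28, FDR 0.00485) and Abcg2 2.57-fold lower (log2 fold change -1.36, SE 0.22, FDR 0.0139). Slc22a7 passed under every setting tried. Abcg2 did not pass without male WT replicate 1 (FDR 0.0531) or without female WT replicate 1 (FDR 0.0969).

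Slco1a4 and Abcc3 were 2.59-fold and 2.68-fold higher in female WT, at FDR 0.0597 and 0.0658. Without male WT replicate 2, the log2 fold change of Abcc3 went from 1.42 to 0.89, and without male WT replicate 1 to 2.27 (FDR 0.00705). Slco1a4 likewise ranged from 0.97 to 1.93 when a library was left out. Slco1a1 was at -1.23 (SE 0.41, FDR 0.104).

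Within NT-KO, 1 of 9 members passed, against 1.86% of all genes, and 7 of 9 had libraries that did not overlap, against 34.3%. Abcg2 was 2.35-fold lower in females (log2 fold change -1.23, SE 0.22, FDR 0.0296). It did not pass without male NT-KO replicate 2 (FDR 0.107), without female NT-KO replicate 1 (FDR 0.262) or 2 (FDR 0.133), or in a fit of these 4 libraries alone (FDR 0.0560). Slc22a7 was 1.93-fold lower (log2 fold change -0.95, SE 0.27, FDR 0.218). It passed without female NT-KO replicate 1 (log2 fold change -1.45, FDR 0.0469), and was at -0.57 without female NT-KO replicate 2. Slco1a1 was at -0.99 (SE 0.41, FDR 0.469), and Slco1a4 at 0.73 (SE 0.35, FDR 0.584). With a library left out, Slco1a1 ranged from -1.43 to -0.50 and Slco1a4 from 0.38 to 1.19, both nearest to 0 without male NT-KO replicate 2.

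**Figure D4:**
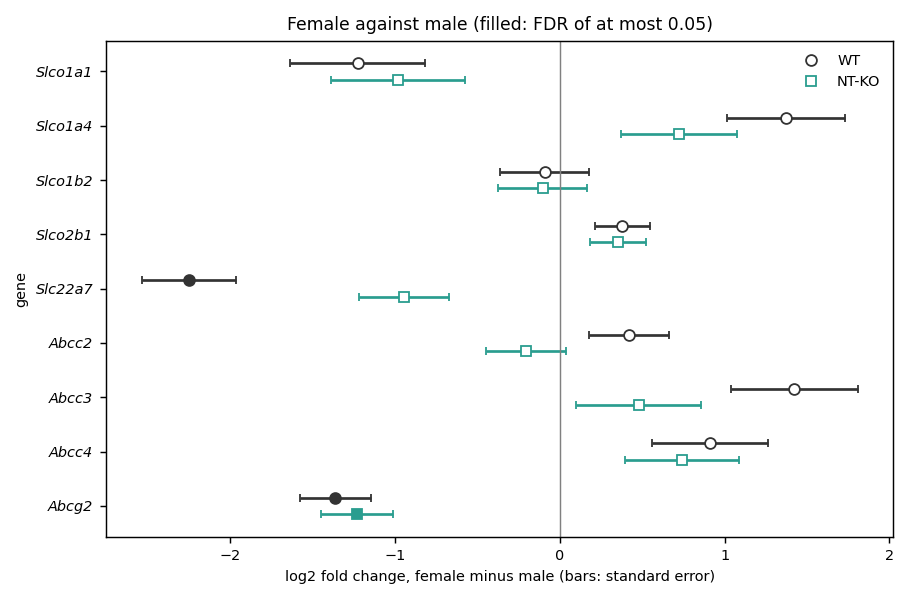
Log2 fold change of female against male (x axis, with bars for the standard error) for each transporter (y axis), with circles for WT and squares for NT-KO, filled where the FDR is at most 0.05. Slc22a7 and Abcg2 are filled in WT and Abcg2 in NT-KO, all to the left of 0.

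The second comparison asked whether the deletion changed transporter mRNA. In males 0 of 9 members passed an FDR of at most 0.05 by edgeR's quasi-likelihood test, against 0.0152% of all genes. The likelihood ratio test and DESeq2 also called 0 members, against 1.94% and 2.35% of all genes. At an unadjusted p under 0.05 there were 3 members, against 11.5% of all genes, and 4 had libraries that did not overlap, against 38.9%. The median log2 fold change (NT-KO minus WT) was 0.44 over the members and 0.012 over all genes.

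Abcc3 had the largest difference between male NT-KO and male WT, 2.06-fold higher (log2 fold change 1.04, SE 0.38, edgeR FDR 0.364). Without male WT replicate 2 it was 0.51, and with replicate 1 of that group left out instead it was 1.89. Slc22a7 was 1.64-fold lower in male NT-KO (log2 fold change -0.71, SE 0.27, edgeR FDR 0.385) and Abcc2 1.49-fold higher (0.58, SE 0.24, edgeR FDR 0.421). Slco1a1 was at 0.66 (SE 0.40), Slco1a4 at 0.54 (SE 0.35) and Slco1b2 at 0.44 (SE 0.27). These depended on single libraries. Slco1a1 ranged from 0.17 without male NT-KO replicate 2 to 1.02 without male NT-KO replicate 1, and Slco1b2 from 0.097 to 0.72 without the same libraries. Slco1a4 ranged from 0.079 without male NT-KO replicate 1 to 1.10 without male WT replicate 1, and was 0.14 without male WT replicate 2. Abcc4 was at 0.34 (SE 0.35), Slco2b1 at 0.11 (SE 0.17) and Abcg2 at -0.011 (SE 0.21).

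In females 0 of 9 members passed by the quasi-likelihood test, against 0.00762% of all genes. The likelihood ratio test and DESeq2 again called 0 members, with 0.0839% and 0.0381% of all genes called. None had an unadjusted p under 0.05, against 1.55% of all genes, and 3 had libraries that did not overlap, against 26.4%. Slco1a1 had the largest difference, 1.87-fold higher in NT-KO (log2 fold change 0.90, SE 0.41, edgeR FDR 1). It ranged from 0.46 without female NT-KO replicate 2 to 1.30 without female WT replicate 1. Slc22a7 was 1.51-fold higher (0.59, SE 0.27), and 0.085 on the log2 scale without female NT-KO replicate 1. Slco1b2 was 1.35-fold higher (0.43, SE 0.27), and 0.18 without female NT-KO replicate 2. The other 6 lay between -0.11 (Slco1a4) and 0.17 (Abcc4), each within its standard error.

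Over both sexes 0 of 9 members passed by the quasi-likelihood test, against 0.0152% of all genes. The likelihood ratio test called 0 members and 0.389% of all genes, and DESeq2 0 members and 0.473%. Only Slco1a1 had an unadjusted p under 0.05, against 5.42% of all genes (1.72-fold higher in NT-KO, log2 fold change 0.78, SE 0.29, edgeR FDR 0.866). No member had NT-KO and WT libraries that did not overlap, which 0.953% of all genes had. Slco1b2 was at 0.44 (SE 0.19) and Abcc3 at 0.57 (SE 0.27). Without male WT replicate 2 Abcc3 was at 0.31, and without replicate 1 of that group at 1.00. Slco1b2 was at 0.27 without male NT-KO replicate 2.

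The last comparison asked whether the effect of the deletion differed between the sexes, which equals asking whether the sex difference differed between the genotypes. Here too 0 of 9 members passed by the quasi-likelihood test, against 0.0152% of all genes, and 0 by the likelihood ratio test (0.351% of all genes) and by DESeq2 (0.473%). At an unadjusted p under 0.05 there was 1 member, against 7.2% of all genes. That member was Slc22a7. Both male NT-KO libraries were below both male WT libraries, and both female NT-KO libraries were above both female WT libraries. Of all genes, 38.9% had no such overlap in males and 26.4% in females, in either direction. The log2 fold change of NT-KO against WT was 1.31 higher in females than in males (SE 0.39, edgeR FDR 0.573). Without female NT-KO replicate 1 this value was 0.80. For Abcc3 it was -0.94 (SE 0.53), and leaving out male WT replicate 2 gave -0.41, where leaving out replicate 1 of that group gave -1.78. For Abcc2 it was -0.63 (SE 0.34), with -0.40 without female NT-KO replicate 1, and for Abcg2 0.13 (SE 0.30).

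**Figure D5:**
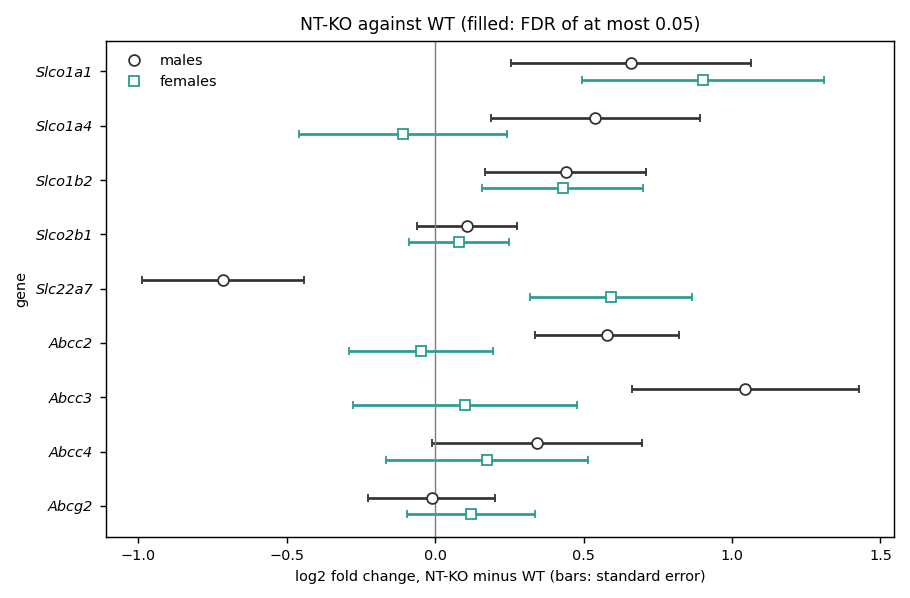
Log2 fold change of NT-KO against WT (x axis, with bars for the standard error) for each transporter (y axis), with circles for males and squares for females. No marker is filled, since none had an FDR of at most 0.05, and Slc22a7 has its markers on opposite sides of 0 (-0.71 and 0.59).

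Related transporters outside the 9 were taken from fixed lists and are given for the sex difference over both genotypes. Of 8 other Slco carriers 2 were tested and 0 passed, against 7.84% of all genes. Slco1a5 and Slco1a6, which lie in the same run on chromosome 6, did not exceed 0.724 CPM in any library. Of 16 tested carriers of the Slc22 and Slc47 families, 5 were higher and 2 lower in females, against 4.12% and 3.72% of all genes. Slc22a27 rose from 0.102 to 1.05 CPM in the male libraries to 16.0 to 41.5 CPM in the female ones (log2 fold change 6.45, FDR 0.000531), and Slc22a26 from 0.0529 to 1.33 CPM to 15.9 to 193 CPM (8.02, FDR 0.00237). Slc22a28 was lower in females (-1.33, FDR 0.00336), and Slc47a1, the proton-coupled pump MATE1, was higher (0.88, FDR 0.00491). Slc22a26 and Slc22a27 met the filter of 1 CPM in 2 libraries only through the female libraries. Slc22a26 to Slc22a28 are close copies, so reads could be shared between them, which was not measured here.

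Of 14 other Abc pumps tested, 2 were higher and 1 lower in females, against 4.12% and 3.72% of all genes. Abcb1a, a P-glycoprotein gene, lay between 1.09 and 3.18 CPM in males and between 7.90 and 16.97 CPM in females (log2 fold change 2.56, FDR 0.000689). Abcg3 was higher (0.79, FDR 0.0229) and Abca1, the cholesterol efflux pump, lower (-0.80, FDR 0.0286). Of 5 bile acid transport genes, 1 was higher and 1 lower, against 4.12% and 3.72% of all genes. Atp8b1, a canalicular lipid flippase, was lower (-0.83, FDR 0.00795). Slc51b was higher (1.73, FDR 0.0144), but at 0.305 to 0.708 CPM in males and 0.805 to 1.76 CPM in females. It met the filter of 1 CPM in 2 libraries only through the female libraries, so its call is no independent evidence of a sex difference. In none of these lists did a gene pass in a comparison of NT-KO with WT, where at most 0.0152% of all genes passed.

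Factors known to act on these carrier genes were examined next. Of 16 receptors and transcription factors, Foxa3 alone was lower in females (log2 fold change -1.66, FDR 0.00147) and 0 were higher, which makes 1 of 16 called against 7.84% of all genes. The constitutive androstane receptor Nr1i3, which did not pass, measured 49.4 to 144 CPM in males and 118 to 166 CPM in females (FDR 0.0602). Among genes of the growth hormone axis, the prolactin receptor Prlr was higher in females at 2.604 (FDR 2.93e-05) and the female-specific repressor Cux2 at 7.28 (FDR 4.36e-05). Cux2 did not exceed 0.631 CPM in males, so it met the filter only through the female libraries. Of 16 targets of xenobiotic sensors 4 were higher, against 4.12% of all genes. These were Cyp4a14 at 7.23 (FDR 8.74e-05), Cyp4a10 at 5.57 (FDR 8.83e-05), Nqo1 at 1.76 (FDR 0.00378) and Cyp2b10 at 2.94 (FDR 0.0116). Of the 11 male-biased liver genes all 11 were lower in females, and of the 12 female-biased genes 11 were higher. Both lists were chosen for their sex bias, with earlier results of these data known, so these counts only check the sex labels.

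Other measured properties of the libraries moved with sex. TMM factors were 0.926 to 0.988 in the male libraries and 1.03 to 1.06 in the female ones, and the sample numbering places all males before all females. The red blood cell markers summed to 321 to 797 CPM in males and 138 to 260.0 CPM in females, and the pancreas markers to 28.04 to 38.6 and 13.8 to 20.9 CPM. Of the 5 pancreas markers, 2 had no count in any library and only 1 passed the filter, so that sum does not speak for the whole list. Kupffer cell markers summed to 145 to 257 CPM in males and 268 to 323 CPM in females, and sinusoidal endothelial markers to 106 to 160.5 and 168 to 192 CPM. Of the 6, 6, 3 and 1 tested genes of the Kupffer cell, endothelial, red blood cell and pancreas lists, 0, 0, 1 and 1 passed. Of all genes 7.84% passed. The hepatocyte, stellate cell, cholangiocyte and lymphocyte sums overlapped between the sexes. Even so, 2 of 4 tested lymphocyte markers, Cd79a among them, and 1 of 5 cholangiocyte markers, Epcam, were higher in females. Of all genes 4.12% were higher. The part of these shifts in the transporter differences was not tested. The kidney tubule markers, of interest because kidney also expresses several of these carriers, summed to at most 0.0708 CPM, with Slc12a1, Kap and Aqp2 at 0 in all 8 libraries.

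Of 13 clock genes tested, 1 was higher and 2 lower in females, against 4.12% and 3.72% of all genes. These were Per3 at 0.82 (FDR 0.00184), Clock at -0.90 (FDR 0.00879) and Arntl at -1.70 (FDR 0.0110). Arntl measured 4.11 and 4.16 CPM in male WT and at most 1.91 CPM in the other 6 libraries. The hour at which the livers were taken is not given in the sources used here. Of the 12 ER chaperones 2 were lower in females, and of the 10 acute phase genes 1, against 3.72% of all genes. The shift lay in WT, where the median log2 fold changes of the 2 lists were -1.38 and -0.93. In NT-KO they were 0.039 and 0.047. Male WT replicate 2 had the highest sum of both lists. The part of these genes in the transporter values was not tested.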

How the data were processed

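RNA-seq was made from whole liver in 8 libraries, 2 in each of 4 groups taken from the sample titles. Per the labels and methods, adapters were removed with cutadapt, STAR 2.6.1a did the alignment, and featureCounts gave reads per gene of the Ensembl annotation of GRCm38. The deposited values are raw counts per gene, with no normalization. The strand and multi-mapping settings are not given in the sources used here.

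edgeR 4.0.16 (R 4.3.3, limma 3.58.1) gave CPM with TMM-scaled library sizes and the tests, and DESeq2 1.42.0 served as an alternative. A gene was kept when 2 or more libraries had 1 CPM or more, and rRNA, miRNA and mitochondrial genes were removed, which left 13117 of 49671. Names, positions and exon lengths came from GENCODE M21 (GRCm38), with which 49412 IDs matched. A quasi-likelihood model with 4 group means was fitted to all 8 libraries across all genes, with Benjamini-Hochberg adjustment, and a gene was called at an FDR of at most 0.05. The standard error is the absolute log2 fold change divided by the square root of F. A count of 1 is worth 0.0147 to 0.0236 CPM. Every test was two-sided, and the fit was tested on simulated data.

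The transporters and the lists were chosen with earlier results of these data known. The rule for named genes took all 9 transporters, up to 4 called members of a list by the smallest FDR of the sex difference over both genotypes, any list member called in a genotype comparison, and Lbr. Nr1i3, Slco1a5, Slco1a6 and the marker genes were named after their values were seen. The values of some list genes are not reported here. Alternatives for the test were DESeq2 and the likelihood ratio test of edgeR. Scaling was tried with RLE factors and with library size alone, and the filter with filterByExpr, with group means and with none past 1 count. Robust dispersion, a block for the replicate number, an FDR limit of 0.01, a minimum fold change, fits of only the 4 libraries compared, and fits without each library were also tried.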

Additional observations from a re-analysis of the deposited data

Results flagged for a closer look

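For Slc22a7 the log2 fold change of NT-KO against WT had opposite signs in the 2 sexes and did not pass the test in either. Every male NT-KO library lay below both male WT libraries, and every female NT-KO library above both female WT libraries. Of all genes, 38.9% had no overlap between these groups in males and 26.4% in females. The log2 fold change (NT-KO minus WT) was -0.71 in males and 0.59 in females (0.085 without female NT-KO replicate 1), and the difference, female minus male, was 1.31 (SE 0.39). The test of this difference gave an edgeR FDR of 0.573 over all genes, so it did not pass. It ranged from 0.80 to 1.68 when a library was left out, with the lowest value without female NT-KO replicate 1.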

How the results depend on the processing

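Slc22a7 and Abcg2 were called lower in females over both genotypes under every alternative. The counts of members called for sex, 3 over both genotypes, 2 in WT and 1 in NT-KO, moved with the test and the filter. Over both genotypes, the likelihood ratio test, DESeq2, library size only and no filter beyond 1 count each called 6, against 13.4%, 14.1%, 11.4% and 9.16% of all genes (7.84% in the reported test). In WT, the likelihood ratio test and DESeq2 each called 5, library size only 4, no filter 6 and an FDR of at most 0.01 called 1, against 13.0%, 13.7%, 10%, 8.96% and 1.21% of all genes. In NT-KO, DESeq2 called 2, no filter 4, an FDR of at most 0.01 called 0 and the 4 libraries alone 0, against 3.66%, 3.28%, 0.922% and 1.72%. Without the filter, 2 were called for NT-KO against WT in males (Slc22a7, Abcc3), 1 in females (Slco1a1), 2 over both sexes (Slco1a1, Abcc3) and 1 for the difference between the sexes (Slc22a7), against 3.09%, 0.653%, 1.5% and 1.86% of all genes. The cause was not tested. With a library left out, the counts of members called for sex moved in WT, in NT-KO and over both genotypes. The share of all genes called moved in the same fits, so a change in these counts is not particular to the transporters. In the 4 genotype comparisons no member was called in any of these fits.

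Library size only moved the median of all genes by 0.18 in WT and by 0.13 over both genotypes for sex, and there turned Slco1b2 to 0.085 and 0.030, and Abcg2 for genotype in males to 0.061. Directions that turned with a library left out belonged to small differences. For sex, Slco1b2 ranged from -0.25 to 0.070 in WT, -0.38 to 0.24 in NT-KO and -0.23 to 0.071 over both, and Abcc2 from -0.48 to 0.025 in NT-KO and -0.030 to 0.22 over both. For genotype in males, Abcg2 ranged from -0.26 to 0.20. For genotype in females, Slco2b1 ranged from -0.034 to 0.20, Slco1a4 from -0.32 to 0.074, Abcc2 from -0.32 to 0.18, Abcc3 from -0.069 to 0.25, Abcc4 from -0.39 to 0.58 and Abcg2 from -0.064 to 0.33.

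The labels number the libraries of each group 1 and 2. Deviations of same-numbered libraries from their group means correlated from -0.18 to 0.21 over genes, so the numbers were not taken as pairs. A replicate block gave 3, 2 and 1 calls for sex over both genotypes, in WT and in NT-KO, against 7.21%, 5.18% and 1.59% of all genes. It gave 0 in the genotype comparisons, against at most 0.0229%. An exchange of the male WT numbers, added after seeing the data, gave 3, 3 and 1, against 10.3%, 8.45% and 1.91% of all genes. A library that stays alone in its group in such a fit is assumed to vary like the rest. Abcc4, with 74 to 259 counts, was the member most limited by depth.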
